A study of Mus musculus with 4 samples.

Results

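Natural killer (NK) cells, cytotoxic lymphocytes of innate immunity, were profiled by DNase-seq, in which the nuclease DNase I cuts accessible chromatin. A peak is a stretch that the nuclease cuts often. A footprint is a short run inside accessible chromatin that is cut less than its surroundings, the mark a bound protein can leave by shielding its DNA. The intervals described here are footprints that lie outside every called peak and yet return in most libraries. They were selected on the deposited intervals themselves: footprints on chromosomes 1 to 19 that overlap no peak of any library were merged where they overlap, and merged intervals with footprints from 3 or more of the 4 libraries were kept. This gave 2678 reproducible outside-peak footprints among 21887 merged intervals outside peaks and 273385 merged intervals in all.

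The 4 libraries, biological replicates 1 to 4, are all of 1 group, and no treatment or genotype was contrasted. They came from primary NK cells of female B6CASTF1/J mice, adults of 2 months and F1 hybrids of C57BL/6J and CAST mice. The labels carry 1 shared donor identifier but a separate biosample per library, and give neither the organ nor the sort, so part of the spread between libraries may be technical. Of 10 NK marker genes, 7, 8, 10 and 6 had a promoter peak, meaning 1 within 1 kb of the annotated gene start (5′ end), in replicates 1 to 4. So did 2, 2, 2 and 1 of 6 T cell markers, 3, 4, 2 and 4 of 5 B cell markers, and, in each library, 2 of 6 myeloid and 1 of 2 autosomal erythroid markers.

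Promoters of widely used genes often sit in CpG islands, stretches rich in the dinucleotide CpG that are accessible in most cell types. Proteins of the KLF and SP zinc finger families bind GC boxes there, and NRF1, YY1, ETS factors and ZNF143 are other frequent promoter binders. CTCF marks insulators and loop anchors, mostly away from promoters, while RUNX and T-box factors direct NK cell genes, largely from distal enhancers.

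To show what these footprints look like, 11 are printed, all of them 4-library intervals whose 41 bp window holds a motif match. They are those with the widest stretch shared by all libraries, for each of the 6 motifs most over-represented against evenly spaced genome windows. The match may run past the edge of the interval. Each is the 41 bp at the interval's centre, read 5′ to 3′ on the plus strand of mm10 with the RefSeq copy of that assembly, and capitals mark the motif match. Motifs were searched on both strands: NRF1 as GCGCA, any base, GCGC; KLF/SP as GGGCGGG; EGR as GCGTGGGCG; ETS as CCGGAAGT; ZNF143 as ACTACA, any 2 bases, TCCC; and YY1 as AANATGGCG. The KLF/SP and EGR motifs overlap in the letters GGGCG.
NRF1 at Ddx11, window chr17:66123496-66123536: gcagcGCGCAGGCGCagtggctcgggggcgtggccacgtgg
NRF1 at Man1b1, window chr2:25332723-25332763: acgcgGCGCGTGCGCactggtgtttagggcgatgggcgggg
KLF/SP at Limk1, window chr5:134689169-134689209: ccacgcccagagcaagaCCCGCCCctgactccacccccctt
EGR at Ifngr1, window chr10:19591655-19591695: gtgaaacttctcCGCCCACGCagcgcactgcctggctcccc
EGR at Casp9, window chr4:141793766-141793806: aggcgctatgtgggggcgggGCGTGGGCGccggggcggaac
ETS at Ncapg, window chr5:45669696-45669736: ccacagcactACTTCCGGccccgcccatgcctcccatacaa
ETS at Bysl, window chr17:47611275-47611315: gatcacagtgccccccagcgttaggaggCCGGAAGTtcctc
ZNF143 at Pdcd10, window chr3:75556848-75556888: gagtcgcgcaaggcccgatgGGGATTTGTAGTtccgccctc
ZNF143 at Tle4, window chr19:14598147-14598187: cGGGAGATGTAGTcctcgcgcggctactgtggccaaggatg
YY1 at Lyrm4, window chr13:36117869-36117909: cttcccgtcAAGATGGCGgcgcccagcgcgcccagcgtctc
YY1, 76513 bp upstream of Chd2, window chr7:73618323-73618363: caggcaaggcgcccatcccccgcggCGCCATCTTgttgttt
The Man1b1 window also holds a KLF/SP match near its end and is the interval that the rule names for that motif too.

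The libraries differed in how much they contributed. Replicates 1 to 4 had 113105, 124205, 181025 and 93570 footprints on the autosomes, and 5.56%, 6.48%, 7.66% and 4.70% of them overlapped no peak of any library. Replicate 3 had the most footprints and the highest share outside peaks, and replicate 4 was lowest in both. A footprint outside peaks was usually seen in a single library: 15971 of the merged intervals came from 1 library, 3238 from 2, 1633 from 3 and 1045 from 4. The reproducible ones were thus 12.2% of the merged intervals outside peaks. Among the 251498 merged intervals that overlap a peak, 58758, or 23.4%, had footprints from 3 or more libraries. Both shares are set by the selection and are given as a description.

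Of the 2678 reproducible outside-peak footprints, 39.0% were present in all 4 libraries. The 1633 found in 3 lacked replicate 4 in 794 cases, replicate 1 in 505, replicate 2 in 214 and replicate 3 in 120, the reverse of the order of the libraries by footprint number. In 2514, or 93.9%, the footprints of at least 3 libraries shared a base. Their merged length was 19 bp at the median, with an upper quartile of 25 bp and a longest of 66 bp, against 8 bp for outside-peak intervals of 1 or 2 libraries and 24 bp for in-peak intervals of 3 or more. Merging more libraries lengthens an interval, so length is partly set by the rule.

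None was far from a peak. The distance to the nearest peak had a median of 26 bp and a largest value of 385 bp, and 66.8% lay within 50 bp. At the edge of the rule, 101 touched a peak with no base between and 704 had under 10 bp between, while 1341 intervals of 3 or more libraries overlapped a peak by under 10 bp and so fell just outside the selection. Only 148 lay more than 150 bp away, and 321 lay between 2 peaks that were each within 200 bp. Outside-peak intervals of 1 or 2 libraries lay at a median of 34 bp. The 5 farthest from a peak with footprints in all 4 libraries were at Ubtd1, Tmpo, which encodes a nuclear lamina protein, Brpf1, a scaffold of a histone acetyltransferase complex, Krcc1 and Sugct. They were 232, 225, 222, 216 and 214 bp from the nearest peak, and each was a promoter interval of the gene named.

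The peaks they border were among the strongest. The 2678 footprints had 1936 distinct nearest peak regions, of which 1415 had 1 such footprint, 382 had 2 and 139 had 3 or more, and 2635 footprints bordered a region with a peak in all 4 libraries. The authors' peak signal had a median of 7.47, 9.50, 13.0 and 9.02 in replicates 1 to 4 over the 1894 regions with a peak in all libraries and such a footprint at their border. Over the 24605 such regions without one it was 1.62, 1.82, 2.64 and 1.28. The bordered regions were higher in each of the 4 libraries, and the ratio of the medians within a library was 5.45 ± 1.09 (mean and SD, n = 4). Among promoter regions alone this ratio was 3.25 ± 0.505. The groups of regions are the same in each library, since the footprints were chosen over all 4, so these SDs describe the signal only. What unit the deposited signal has is not stated in the files or labels, so it is compared within a library only. Region width did not separate the groups in the same way, with a median of 280 bp in both over all regions, and of 280 bp with and 320 bp without such a footprint among promoter regions.

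When promoter regions were ordered by signal in each library and divided into 10 equal parts, 0.251% ± 0.0455 of the weakest part bordered a reproducible outside-peak footprint, 8.19% ± 0.571 of the sixth part, 34.3% ± 1.77 of the ninth and 57.2% ± 1.08 of the strongest (SD, n = 4). The share grew at every step of the mean. The same footprints, chosen over all 4 libraries, were counted each time and only the order of regions by signal changed. These SDs thus describe the ordering and not a repeat of the share in separate libraries. Of all promoter regions with a peak in 4 libraries, 1557 of 10936, or 14.2%, had one, against 337 of 15563 distal regions, or 2.17%. The number of cuts per base is not in the files used, so the part that cut number plays in detecting a footprint was not tested.

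**Figure D1:**
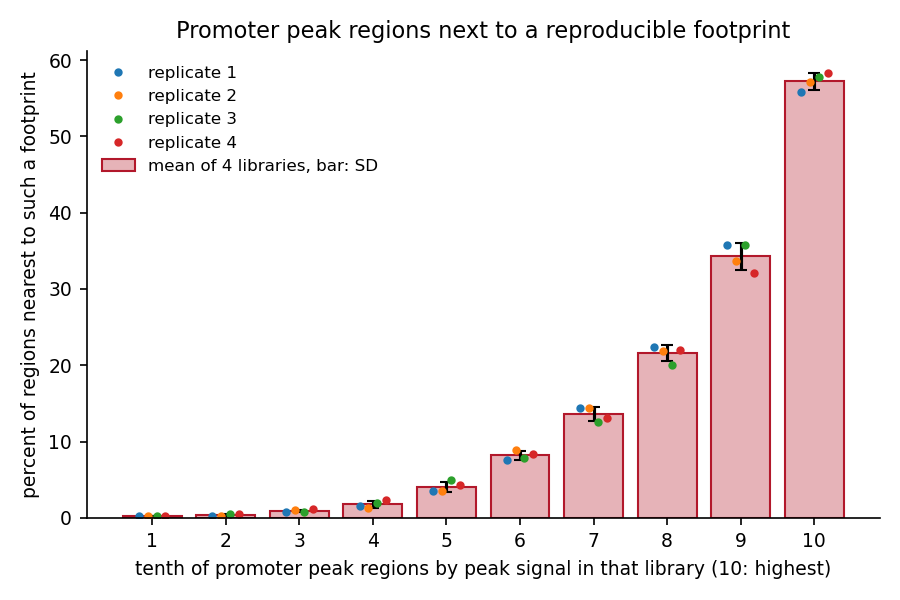
Share of promoter peak regions (y axis, percent) that are the nearest region to a reproducible outside-peak footprint, in 10 equal parts by peak signal in each library (x axis, weakest to strongest); bars are means and error bars SD over 4 libraries, points are libraries. The share is 0.251% in the weakest part and 57.2% in the strongest. The same footprints are counted for each library and only the order of regions by signal differs, so the SD is that of the ordering.

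The footprints had a low false discovery rate (FDR) of the cut rate although no peak covered them. In replicates 1 to 4, 100%, 100%, 100% and 99.2% of them held a base with a deposited FDR below 0.05, and below 0.001 the shares were 99.6%, 99.9%, 99.9% and 98.2%. In outside-peak intervals of 1 or 2 libraries the shares below 0.05 were 79.7%, 81.4%, 93.9% and 73.1%. Those intervals were also shorter, with fewer bases that could pass. Footprints were made from these FDR files, per the deposited readmes, so the values describe the selection. The call of a peak and the FDR of a base thus differed at these sites: 99.8% ± 0.350 of their bases were listed below 0.05 (SD, n = 4), and none was in a peak.

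Whether such footprints return in a library that had no part in choosing them was read by leaving out each library in turn. Intervals were rebuilt outside the peaks of the other 3 libraries and grouped by how many of the 3 had a footprint. Of the 1835, 1408, 1311 and 2139 intervals with footprints in all 3 choosing libraries, 69.6%, 84.9%, 94.7% and 60.2% overlapped a footprint in replicates 1, 2, 3 and 4 when these were left out. Of the intervals seen in only 1 of the 3, 12%, 16.5%, 30.2% and 8.78% did. The first group was higher in 4 of 4 libraries and the groups did not overlap. The difference was 60.5 ± 7.51 percentage points (SD, n = 4; exact sign-flip permutation test, two-sided, p = 0.125). With 4 libraries 0.125 is the smallest value this test can give, so it cannot reach 0.05. The choosing sets share libraries, so the 4 differences, here and for the FDR below, are not independent. The test and the SD do not allow for this.

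Intervals seen in all 3 were also longer, with medians of 20 to 21 bp against 7 to 8 bp for those seen in 1, and a longer interval is more easily overlapped. Asking instead for a footprint over the interval's centre base, an alternative chosen after the data were seen, gave 56.0%, 74.6%, 87.1% and 46.8% against 9.16%, 13.1%, 24.8% and 6.58%, a mean difference of 52.7 points. Intervals inside peaks and seen in all 3 libraries overlapped a footprint of the library left out in 85.6%, 90.7%, 93.9% and 74.6%. Replicate 3 was thus the highest and replicate 4 the lowest in each set.

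The low FDR also held in the library left out, where the lowest value over an interval's bases was read. Longer intervals have more bases that can pass, and the part of length in the difference below was not tested. A base below 0.05 was present in 99.7% ± 0.514 of intervals seen in all 3 choosing libraries and in 79.3% ± 8.60 of those seen in 1, a difference of 20.5 ± 8.25 points that was positive in 4 of 4 libraries (SD, n = 4; exact sign-flip permutation test, two-sided, p = 0.125, the smallest it can give). The library left out had called a peak over 14.0% ± 1.95 of the intervals seen in all 3 choosing libraries and over 11.8% ± 3.65 of those seen in 1.

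**Figure D2:**
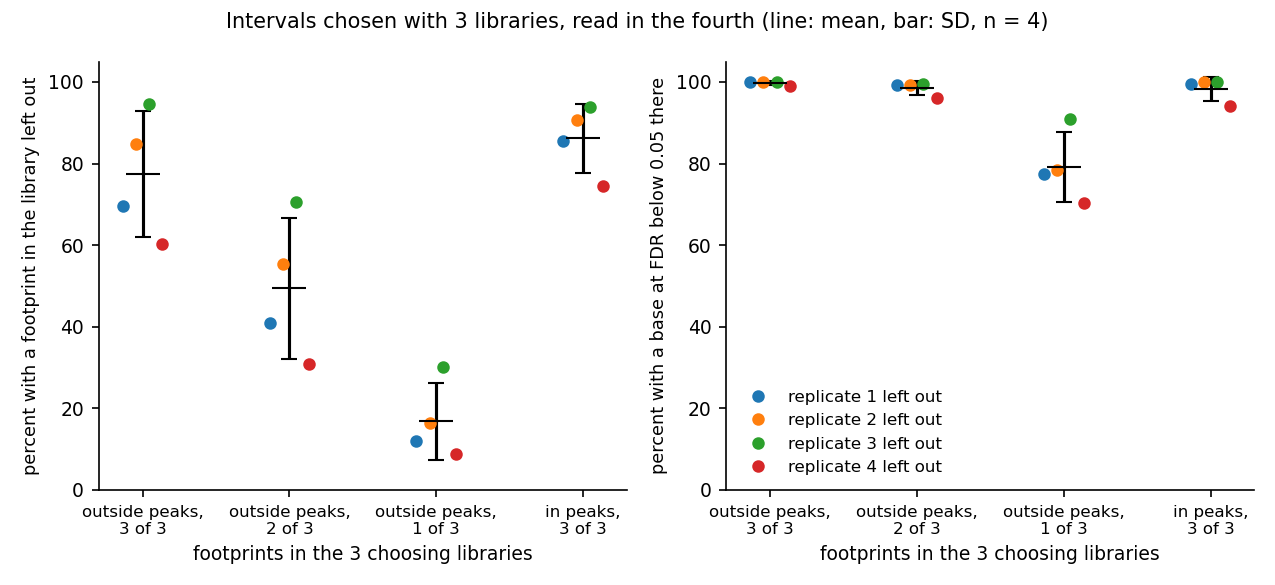
Percent of intervals (y axes) with a footprint (left panel) or a base at FDR below 0.05 (right panel) in the library left out, for intervals outside peaks with footprints in 3, 2 or 1 of the 3 choosing libraries and for in-peak intervals seen in all 3 (x axis); points are libraries, lines means and bars SD (n = 4). Intervals seen in all 3 lie between 60.2% and 94.7% in the left panel, above those seen in 1, at 8.78% to 30.2%.

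Reproducible outside-peak footprints were mostly at promoters. Of 2678, 2199, or 82.1%, had a base within 1 kb of a protein-coding gene's 5′ end (GENCODE vM21), against 60.4% of outside-peak intervals of 1 or 2 libraries, 55.8% of in-peak intervals of 3 or more libraries and 1.67% of 479187 windows of 41 bp placed every 5 kb. With any annotated transcript start the share was 92.5%. By annotation 33.5% were intergenic, 30.1% lay in untranslated exon sequence, 20.4% in introns, 8.03% in coding exons and 8.03% in other exons. Sets of intervals are set side by side as counts over these 4 libraries, with no test, since intervals are not replicates.

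Within promoters most lay beside the 5′ end, and 39 of the 2678 covered a protein-coding 5′ end. Of the 2198 whose centre lay within 1 kb, 1045 were upstream, at a median of −215 bp, and 1153 downstream, at a median of 162 bp. Only 25% lay under 100 bp from the 5′ end and 63.0% lay 100 to 400 bp away. For in-peak intervals of 3 or more libraries these shares were 52.5% and 36.1%, with medians of −89 and 97 bp. Outside-peak intervals of 1 or 2 libraries resembled the reproducible ones in this, with 18.2% and 63.9%. The 5′ end was inside a peak in 81.4% of the 10628 genes with a recurrent promoter region, one with a peak in at least 3 libraries, and the rule removes footprints there. A start of another gene on the opposite strand was annotated within 1 kb for 27.9% of the upstream and 34.8% of the downstream footprints, against 31.3% of those 10628 genes.

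**Figure D3:**
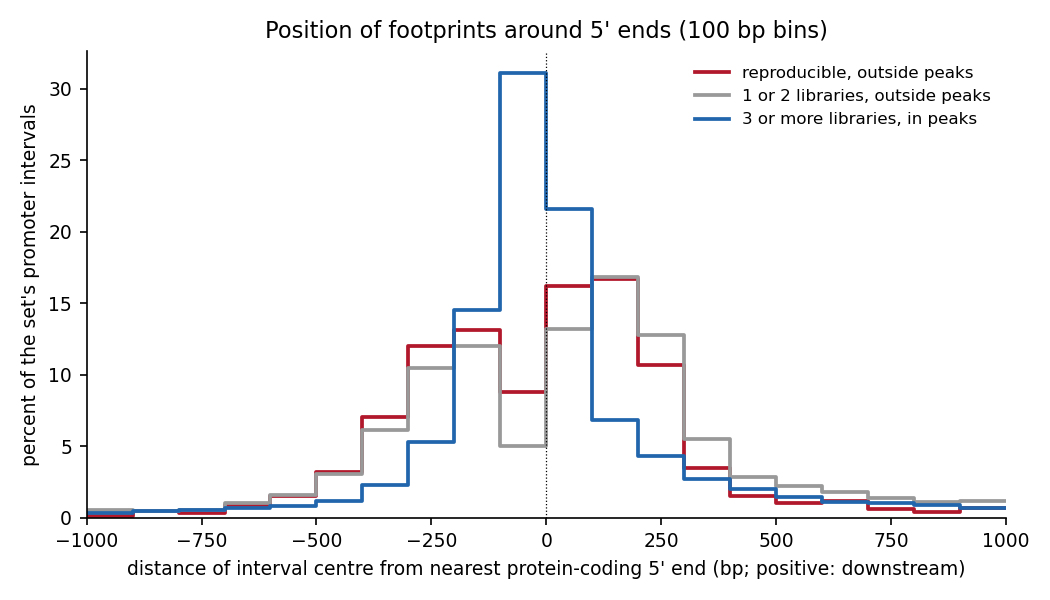
Percent of each set's promoter intervals (y axis) by distance of the interval's centre from the nearest protein-coding 5′ end (x axis, bp in bins of 100, positive downstream), for reproducible outside-peak footprints, outside-peak intervals of 1 or 2 libraries and in-peak intervals of 3 or more libraries. The reproducible outside-peak footprints spread to each side of the 5′ end, with medians of −215 and 162 bp, against −89 and 97 bp for the in-peak intervals.

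The sequence was that of GC-rich promoters. The 41 bp windows at the centre of the footprints had a mean of 65.0% G or C and 3.63 CpG, against 63.3% and 3.04 in in-peak intervals of 3 or more libraries. At promoters alone, the footprints had 66.2% and 3.81 and the in-peak intervals 66.9% and 4.00. Outside-peak intervals of 1 or 2 libraries had 59.3% and 2.57, and evenly spaced windows 41.9% and 0.341. Repeats, the soft-masked letters of the assembly, took 12.6% of the bases of the reproducible footprints, against 11.7% in intervals of 1 or 2 libraries and 7.58% in in-peak intervals of 3 or more. Over the 41 bp windows, repeats took 10.9% of bases at the reproducible footprints and 33.5% in evenly spaced windows.

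Motifs are given as fixed consensus letters in the 41 bp window, a description of sequence and not of binding. GC boxes were the most frequent of the 32 searched. A KLF/SP match was in 383 footprints, or 14.3%, against 12.3% of in-peak intervals of 3 or more libraries. At promoters alone it was in 15.1% of the footprints and 17.5% of in-peak intervals. Outside-peak intervals of 1 or 2 libraries had it in 5.14% and evenly spaced windows in 0.192%. The share went with the number of libraries, at 18.2% of footprints in 4 libraries, 11.8% in 3, 7.75% in 2 and 4.61% in 1. In the same order, mean G or C was 65.8%, 64.5%, 63.3% and 58.5%, and the share at promoters 82.1%, 82.1%, 78.0% and 56.9%. The part of base composition and position in this trend was not tested. The Limk1 window printed above, at a gene for a kinase of the actin regulator cofilin, shows one such match in an interval of 47 bp. Its footprint covered 46, 46, 47 and 40 bp in replicates 1 to 4 and lay 25 bp from a peak with signals of 15.9, 20.8, 26.4 and 23.2. Replicate 4 had the shortest footprint there, and all 4 libraries shared 40 bp. The longest interval, at chr13:111490193-111490258, was 66 bp long, with its centre 115 bp upstream of the Gpbp1 5′ end. It had footprints over 48, 50, 64 and 53 bp, and its central 41 bp hold several GC boxes that run into each other, in capitals:
Gpbp1, window chr13:111490206-111490246: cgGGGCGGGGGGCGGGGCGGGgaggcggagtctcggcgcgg

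NRF1, a regulator of nuclear genes for mitochondria and of many growth genes, had a match in 65 footprints. That was 2.43%, against 2.89% of in-peak intervals of 3 or more libraries. At promoters alone the shares were 2.59% of the footprints and 4.36% of in-peak intervals. Outside-peak intervals of 1 or 2 libraries had a match in 0.406% and evenly spaced windows in 0.00751%. In 4-library footprints the share was 3.92%, and in 3-library ones 1.47%. Ddx11, a DNA helicase gene, had an NRF1 match in an interval that spans the gene's 5′ end. The footprint there covered 41, 39, 39 and 41 bp in replicates 1 to 4, nearly the whole window in each, and 39 bp were common to all. It lay 24 bp from a peak with signals of 5.53, 6.84, 8.83 and 6.08. At Man1b1, a gene for a mannosidase that trims glycans, the footprint with NRF1 and KLF/SP matches covered 41, 43, 35 and 36 bp and lay 405 bp downstream of the 5′ end. It was nearer to the start of AA543186, a long noncoding RNA gene, at 172 bp upstream.

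YY1 matches were in 30 footprints, or 1.12%, against 0.812% of in-peak intervals of 3 or more libraries and 0.0536% of evenly spaced windows. At promoters alone the share was 1.14% of the footprints and 1.14% of in-peak intervals. Of the 25 with their centre within 1 kb of a 5′ end, 20 were downstream, and 16 of these 20 had the motif on the strand of the gene. In-peak intervals had 264 downstream matches, 184 of them on the gene's strand, and 109 upstream. At Lyrm4, whose product serves the assembly of iron-sulphur clusters, the footprint with the YY1 match covered 28, 30, 32 and 23 bp. The footprint 76513 bp upstream of Chd2, a chromatin remodeller gene, covered 19, 18, 27 and 25 bp. Counting genes of all types, the nearest start was that of Gm44738, a long noncoding RNA gene, 9092 bp away. The footprint lay in intergenic sequence 24 bp from a peak with signals of 10.7, 15, 17.8 and 20.1.

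Several other promoter motifs were less frequent than in promoter peaks. ETS matches were in 23 footprints, ZNF143 in 6, EGR in 6, NFY (AGCCAAT) in 10 and CRE (TGACGTCA) in 6. Among footprints within 1 kb of a 5′ end the shares were 0.910% for ETS, 0.273% for ZNF143, 0.409% for NFY and 0.182% for CRE. In in-peak promoter intervals they were 2.42%, 0.989%, 2.08% and 1.24%. In the evenly spaced windows ETS reached 0.0219%, ZNF143 0.00856%, EGR 0.00292%, NFY 0.431% and CRE 0.0213%. EGR was in 0.182% of promoter footprints and 0.314% of in-peak promoter intervals. A gap was also present for ETS, ZNF143, NFY and CRE in a band of 100 to 400 bp from the 5′ end, within which distances were not matched. The reproducible footprints there with a match were few, 11 for ETS, 4 for ZNF143, 7 for NFY and 3 for CRE. Among intervals with their centre 100 to 400 bp from a 5′ end, 1384 reproducible outside-peak footprints and 11814 in-peak intervals, the shares were 0.795% and 1.49% for ETS, 0.289% and 0.813% for ZNF143, 0.506% and 1.74% for NFY, and 0.217% and 0.830% for CRE. KLF/SP, at 14.0% and 16.1%, NRF1, at 2.75% and 3.20%, and YY1, at 1.08% and 0.889%, were closer between those sets, as was EGR, at 0.217% and 0.271% on 3 and 32 matches.

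The footprint at Ncapg, a condensin subunit gene, had the ETS match inside the interval and covered 13, 15, 21 and 13 bp. Counting genes of all types, its centre lay 8 bp upstream of the start of 1600023N17Rik. At Bysl, a gene of ribosome assembly, the footprint covered 18, 20, 14 and 12 bp, and the ETS match ran past the interval's edge. So did the ZNF143 matches in the windows at Pdcd10 and at Tle4, a corepressor gene, the latter match lying nearly wholly outside. The footprints at Pdcd10 and Tle4 were short, with 7, 9, 9 and 10 bp and 8, 11, 12 and 13 bp. The peaks beside them were strong in every library, with signals of 15.6 to 27.2 at Pdcd10 and 15.8 to 28.7 at Tle4.

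Motifs of insulators and of lymphoid factors were rare. CTCF, searched by its consensus, matched in 6 footprints, or 0.224%, against 4.53% of in-peak intervals of 3 or more libraries, 0.498% of in-peak promoter intervals and 0.0171% of evenly spaced windows. With the shorter peak lists its share was 0.633%, above the 0.498% of in-peak promoter intervals under the longer lists, and without replicate 4 it was 0.421%. A motif of RUNX (TGTGGTT), PU.1 (GAGGAAGT), T-box (AGGTGTGA), STAT (TTCCNGGAA), ISRE or AP-1 (TGANTCA) was in 26, or 0.971%, against 2.91% of outside-peak intervals of 1 or 2 libraries, 2.89% of in-peak intervals and 2.98% of evenly spaced windows. PU.1 and ETS share the letters GGAAGT. In-peak promoter intervals were also low, at 1.46%. RUNX alone was in 10, at 0.409% of the promoter footprints and 0.348% of in-peak promoter intervals. T-box was in 0 of 2678, against 0.0580% of in-peak promoter intervals and 0.150% of evenly spaced windows. At least 1 of all 32 motifs was in 641 footprints, or 23.9%, against 15.5% of outside-peak intervals of 1 or 2 libraries, 32.6% of in-peak intervals of 3 or more and 9.88% of evenly spaced windows, so most of the footprints held none of the letters searched. The others spelled out were E2A (CAGGTG), in 46 footprints or 1.72% against 2.45% of evenly spaced windows, and E-box (CACGTG), in 20 or 0.747% against 0.380%. Among the rest, the octamer motif ATGCAAAT was in 0 footprints, against 0.309% of evenly spaced windows. The TEAD motif GGAATGT was in 2, or 0.0747% against 0.501%, and the C/EBP motif TTGCGCAA in 3, or 0.112% against 0.00543%. The motif AGATAAG of GATA factors was in 4, or 0.149% against 0.540%. The forkhead motif TGTTTAC was in 7, or 0.261% against 0.541%, and the TCF motif CTTTGAT in 10, or 0.373% against 0.729%. In the same order, in-peak intervals of 3 or more libraries had 0.179%, 0.170%, 0.0442%, 0.102%, 0.203% and 0.269%. E2A and T-box share AGGTG. NFKB, searched by its consensus, was in 21, or 0.784%, against 0.849% of in-peak intervals of 3 or more libraries and 0.260% of evenly spaced windows. REST, GR, DR1, Kaiso, RFX, MEF2, SRF and NFI were in 0 to 4 each.

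**Figure D4:**
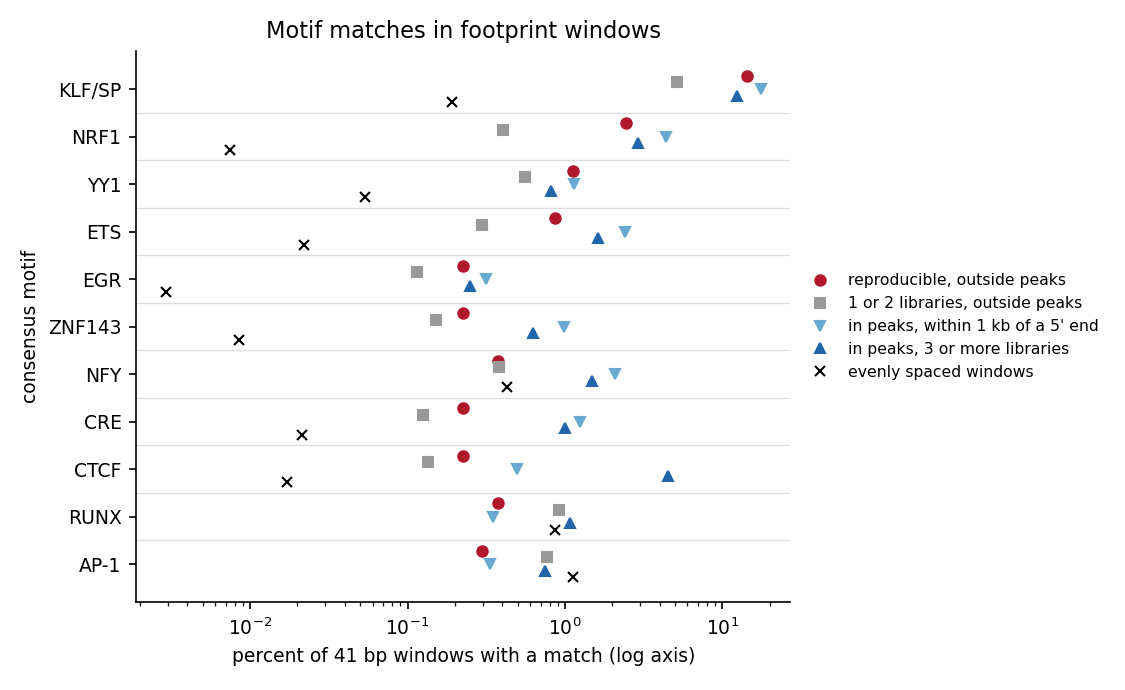
Percent of 41 bp windows with a match (x axis, log scale) for 11 consensus motifs (y axis) in reproducible outside-peak footprints, outside-peak intervals of 1 or 2 libraries, in-peak promoter intervals, all in-peak intervals of 3 or more libraries, and evenly spaced genome windows. KLF/SP, at 14.3%, lies between all in-peak intervals, at 12.3%, and in-peak promoter intervals, at 17.5%. NRF1, at 2.43%, lies near all in-peak intervals, at 2.89%, and below in-peak promoter intervals, at 4.36%. CTCF is at 0.224% against 4.53% in all in-peak intervals.

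KLF/SP and NRF1 matches sat at the centre of the footprints. In bins of 20 bp, there were 14.2 KLF/SP matches per 100 footprints in the central bin, 4.37 and 4.97 in the bins 20 bp to each side, and 7.02 and 6.39 at 60 bp. NRF1 had 2.43 in the central bin, 0.224 and 0.112 at 20 bp, and 1.42 and 1.27 at 60 bp. G and C content followed the same course, with 68.6% at the centre, 61.3% and 61.6% at 20 bp, and 63.4% and 63.8% at 60 bp. In-peak promoter intervals had 15.5 KLF/SP and 3.84 NRF1 matches and 70.2% G or C in the central bin. Base composition thus moved with the matches, and its part in them was not tested.

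**Figure D5:**
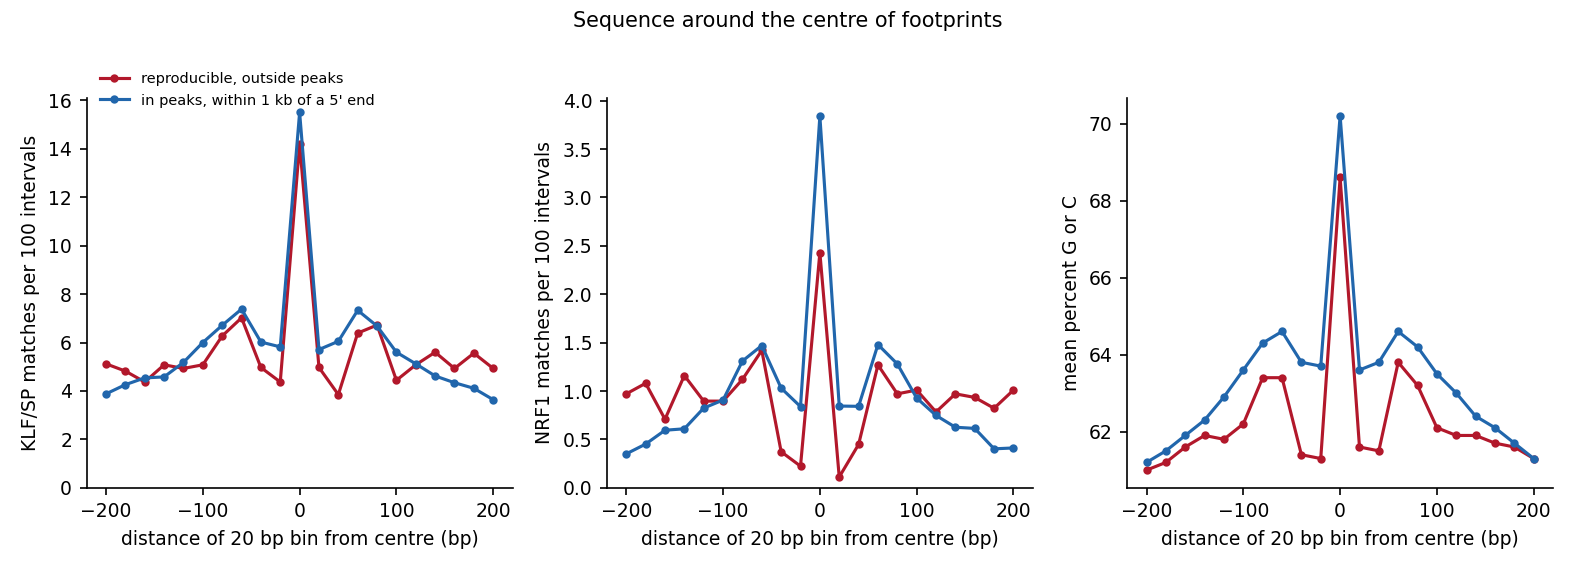
KLF/SP and NRF1 matches per 100 intervals and mean percent G or C (y axes) in 20 bp bins by distance from the interval's centre (x axes, bp), for reproducible outside-peak footprints and in-peak promoter intervals. All 3 measures are highest in the central bin, at 14.2, 2.43 and 68.6% for the outside-peak footprints, and dip in the bins beside it.

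Genes with such a footprint at the promoter were 1833 of 20807 autosomal protein-coding genes, or 8.81%, and 1831 of the 10628 with a recurrent promoter region, or 17.2%. Of them 1289 had 1, 381 had 2 and 109 had 3. Most had Zfp78, a zinc finger gene, with 8, then Eif5a, a translation factor gene, and Jun, the AP-1 subunit gene, with 7 each. Sugct and Mplkip, which share a promoter region, Ing2, a reader of histone methylation, and Sept7, a septin gene, had 6 each. The gene body with 25 kb on either side held the highest number for Gm20388, a gene model with a locus of 4485 kb, which had 14. Loci with 8 included Nsun2, an RNA methyltransferase gene, Pitpnm1, Ccdc106, Gm3854, Zfp78, Zfp28, Lrrc8e and Map2k7 and its overlapping model Gm49320. The 8 at Zfp78 are the same intervals that the overlapping loci of Gm3854 and Zfp28 count.

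Lists of NK cell genes and of other genes were read in the same way. None of 22 NK receptors and adaptors had a reproducible outside-peak footprint within 1 kb of the 5′ end, although 10 had a recurrent promoter region. Neither had any of 19 T cell genes, of which 9 had such a region, 20 B cell and plasma cell genes (11), 20 myeloid genes (7) or 18 erythroid and megakaryocyte genes (6). Among 20 cytotoxic effectors 1 had one, Lamp1, the granule membrane protein that marks degranulation. Among 18 NK transcription factors there were 2, Id2, an inhibitor of E proteins needed for NK cells, and Irf8. Among 18 genes of cytokine receptors and trafficking there were 2, Cxcr4, a chemokine receptor, and Ifngr1, a receptor subunit for interferon gamma. Of 17 housekeeping genes 6 had one: Ppia, Polr2a, Rps18, B2m, Actb and Rpl13a. Against the 17.2% of all genes with a recurrent promoter region, these were 0% of 10, 7.14% of 14, 18.2% of 11 and 15.4% of 13 for the NK lists in that order, and 37.5% of 16 for housekeeping. With so few genes per list, no difference between lists is drawn.

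At Ifngr1 the footprint lay 274 bp upstream at chr10:19591662-19591688 and held the EGR match printed above. It covered 21, 24, 26 and 9 bp in replicates 1 to 4, shortest in replicate 4, and lay 32 bp from a peak with signals of 14.4, 17.3, 27.3 and 20.7. The Cxcr4 promoter had 2, both in 3 libraries, 258 and 363 bp upstream at chr1:128592542-128592560 and chr1:128592641-128592671. They lay 61 and 160 bp from a peak with signals of 8.88, 11.3, 12.5 and 10.7, and the nearer held an E-box, CACGTG. At Id2 the footprint lay 822 bp downstream in an intron at chr12:25096308-25096328, in 4 libraries, beside a peak with signals of 7.32, 7.84, 12.6 and 7.57. At Irf8 it lay 192 bp upstream, in 3 libraries, beside signals of 4.76, 7.34, 7.83 and 7.79. At Lamp1 it lay 101 bp upstream, in 4 libraries and 3 bp from a peak with signals of 4.18, 6.52, 8.10 and 7.94. Actb, the beta actin gene, had the only NRF1 match among the housekeeping genes, 579 bp downstream in 3 libraries, and Ppia, a cyclophilin gene, had the only KLF/SP match, 686 bp downstream. Peak signals were higher at Actb, with 12.1, 17.4, 23.3 and 23.8, than at B2m, the MHC class I light chain gene, with 6.12, 9.12, 14.4 and 8.55.

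The wider locus of a gene, its body with 25 kb on either side, held at least 1 of the footprints for 4054 of all 20807 genes, or 19.5%. It did so for 3 of 22 NK receptors and adaptors, 2 of 20 cytotoxic effectors, 5 of 18 NK transcription factors and 5 of 18 genes of cytokine receptors and trafficking, shares on either side of that background. Among the other lists the counts were 0 of 19 T cell, 3 of 20 B cell and plasma cell and 4 of 20 myeloid genes. They were 2 of 18 for erythroid and megakaryocyte genes and 11 of 17, or 64.7%, for housekeeping genes. Klrb1c, which encodes the NK marker NK1.1, had the most of the NK receptor genes, and none of its footprints was within 1 kb of any protein-coding 5′ end. Its locus held 3. The pair at chr6:128803329-128803375 and chr6:128803413-128803436 lay in an intron of the annotation 14137 and 14210 bp upstream of its 5′ end, 48 and 132 bp from a peak with signals of 9.19, 10.6, 15.2 and 10.1. The first was in 4 libraries and the second in 3. The third, in 3 libraries at chr6:128760724-128760751, was intergenic and lay beside a weaker peak, with signals of 4.30, 5.61, 7.51 and 4.85. Hcst and Tyrobp, neighbouring adaptor genes for activating receptors, had 1 in their loci, as had Gzmm, and Il12rb1 had 2, all within 1 kb of a protein-coding 5′ end that was not their own. Ikzf3, Nfil3 and Cx3cr1 had 1 each, farther than 1 kb from any such end. Loci of other cell types had some as well, and those named here were within 1 kb of a protein-coding 5′ end except the 1 at Cd14, with 2 at Spib and 1 at Cd79a among B cell genes, 2 at Cebpe and 1 at Cd14, Elane and Fcgr1 among myeloid genes, and 3 at Tmod1 and 2 at Epor among erythroid genes. Ywhaz had 4 among housekeeping loci, none within 1 kb of a protein-coding 5′ end.

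Of the 479 footprints more than 1 kb from a protein-coding 5′ end, 278 lay within 1 kb of another annotated transcript start and 201 near none. The 201 had a mean of 52.4% G or C and 1.90 CpG per window, against 66.0% and 3.77 in the 2477 near a start. KLF/SP matched in 5.97% of the 201 and 15% of the 2477, and CTCF in 3 of each, 1.49% and 0.121%. The median signal of the nearest peak was 5.52, 7.07, 10.3 and 6.69 for the 201, against 8.14, 10.4, 14.0 and 9.93 for the 2477, lower in each of the 4 libraries. Along the chromosomes, the footprints numbered 18.4 on chromosome 16 to 28.9 on chromosome 7 per 100 promoter regions with a peak in all libraries.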

How the data were processed

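DNase-seq footprints, peaks and FDR values of 4 mouse NK cell libraries were used. Per the deposited readmes, the authors made each file from a library's own filtered alignments to mm10, without pooling. No source used here names the aligner, the callers or their versions. The authors' peak signal comes 1 value per peak, in whole multiples of a step specific to the library, so signals of different libraries are not compared; depth is unknown and no counting interval is given. The deposited FDR, a p-value or q-value like measure, lists bases below 0.05. The deposited footprints carry the constant 0.01 and no other value. The longer of the 2 peak lists per library was used.

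Intervals were merged on overlap of 1 bp, peaks also on touching. Genes came from GENCODE vM21 and sequence from RefSeq's GRCm38.p6, the assembly of mm10; alleles of the CAST parent were not considered. Named intervals and genes follow a written rule: the widest shared 4-library matches to 6 motifs, the 5 farthest from peaks, the 5 longest, the most frequent genes and every listed gene with a promoter footprint. Some genes that the rule names are not reported here. Members, gene lists and motifs were chosen with earlier results of these data known. The steps were tested on 20 simulated interval sets and 32 planted motifs. The only test is the exact sign-flip permutation over the 4 libraries left out in turn. Python 3.11.15, numpy 2.4.6, pandas 2.3.3 and scipy 1.17.1 were used.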

Additional observations from a re-analysis of the deposited data

Results flagged for a closer look

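Of 92 sets of 4 library values, 10 had a library standing apart, that is with a gap to its neighbour that took most of the set's range. The rule is set so that chance flags about 1 set in 20. That rate was not tested on these sets, of which several hold values at or near 100% or whole numbers and several read the same library's FDR. In 6 of the 10 the library was replicate 4, in 5 of them for the share of intervals with a base below an FDR of 0.05. The share was 99.2% of reproducible outside-peak footprints in replicate 4, against 100% in each of the others, and 95.3% of in-peak intervals of 3 or more libraries, against 99.6% to 100%. With replicate 4 left out of the choice it was 99.0% of intervals seen in all 3 choosing libraries, 96.1% of those seen in 2, and 94.0% of in-peak intervals. The footprint at Limk1 covered 40 bp in replicate 4, against 46 to 47 bp in the others.

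Replicate 1 called a peak over 16.1% of intervals seen in 2 of the other libraries, against 8.58% to 9.45% elsewhere, and the deposited peak signal at Irf8 read 4.76 there and 7.34 to 7.83 elsewhere. Replicate 3 had a median footprint length outside peaks of 9 bp, against 8 bp, and the deposited peak signal at Id2 read 12.6 there and 7.32 to 7.84 elsewhere. The scale of the signal between libraries is not stated, so these are no comparison of the libraries, and replicate 3 also had the highest median over all bordered regions, 13.0 beside 7.47 to 9.50.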

How the results depend on the processing

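The 9 results were recomputed 75 times in all, and 53 of the new values stayed within a limit set for each result. For the number of footprints the limit was 1.5 times, and for differences the same direction. For the share in all 4 libraries it was an exact binomial interval over the footprints, which are not replicates. For the other measures it was the SD between libraries of each library's own footprints outside peaks, a wider set than the reproducible ones. No difference reversed. The number of footprints was 1045 when all 4 libraries were required and 159 when footprints within 150 bp of a peak were dropped first, so few survive away from peaks. Without 1 library, with footprints then required in all 3 left, it was 1311 to 2139, with 1408 without replicate 2 and 1311 without replicate 3. The share in all 4 libraries has no value with 1 left out. It was 37.0% with the shorter peak lists, 41.4% where at least 3 libraries shared a base, and 32.1% at 150 bp or more. The median distance became 172 bp at 150 bp or more by construction, and was 25 to 34 bp without 1 library. Repeats took 13.9% of bases with all 4 libraries required and 10.7% at 150 bp or more. CTCF matches were 0.633% with the shorter lists, 0.287% with all 4 required, 0.629% at 150 bp or more, 0.149% in a 21 bp window and 0.229% to 0.421% without 1 library, on few matches. NRF1 matches were 3.92% with all 4 required, 5.03% at 150 bp or more and 2.85% to 3.81% without 1 library. The difference in footprints of the library left out was 57.8 to 63.5 points without 1 library, and the low-FDR difference 17.7 to 24.3. The low-FDR difference was 46.0 points with the shorter lists and 9.26 at 150 bp or more from peaks. The cause of these shifts was not tested. No paired comparison of groups was possible because there is only 1 group. The differences in the library left out were taken within each library. Alternatives with members at regions with a peak in all 4 libraries and with the centre base were added after the data were seen.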
